A study of Mus musculus with 2 samples.

Results

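The cytosolic ribosomal protein genes were taken by symbol: names starting with Rpl or Rps and a digit, together with Rplp0, Rplp1, Rplp2 and Rpsa, without pseudogene symbols and the S6 kinases. Of the 31053 genes measured, 86 symbols matched and 83 had at least 100 UMIs (unique molecular identifiers, each counted as 1 captured transcript) over both libraries. The faintest of the 83 was Rps27rt with 4709 UMIs, and the symbols left out were Rpl39l and Rpl3l with 2 UMIs each and Rpl10l with 1. The set holds 31 proteins of the small (40S) subunit, 43 of the large (60S) subunit, the 3 proteins of the P stalk and 6 other symbols. The 6 are the paralogs or copies Rps27l, Rpl22l1, Rpl36al and Rps27rt, the related Rpl7l1, and Rps19bp1, which encodes a protein that binds Rps19 and is not itself a ribosomal protein.

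Single cells of the mouse jejunum had been sorted for GFP from animals with the Lgr5-eGFP-IRES-CreER allele, which places a green reporter and an inducible recombinase under control of the stem cell gene Lgr5. The animals, labelled female, were aged 10 to 12 weeks, 3 per condition. They had received either an Fc control or an antagonist of the Wnt receptors FZD5 and FZD8, and each condition gave 1 droplet library. The labels state neither the amount given nor for how long, and cells cannot be assigned to single mice. With 1 library per group there is no test: intervals are exact at 95% and cover counting error only, and every difference is one between these libraries.

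Each ribosome carries a single copy of nearly all of these proteins, so their messenger RNAs are among the most abundant of a growing cell. Many of those messages begin with a terminal oligopyrimidine (TOP) tract, a cytosine followed by a run of pyrimidines, through which growth signals of the mTOR pathway and the binding protein Larp1 govern their translation. The intestinal crypt renews its epithelium continuously, and its stem and progenitor cells are rich in ribosomes while mature cells devote more of their RNA to digestive, secretory or antimicrobial products.

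Several features of the libraries bear on what follows, and the sex-linked genes of the control did not match its label. Kept cells (at least 500 genes and at most 20% mitochondrially encoded UMIs) numbered 11263 in the control and 11019 in the antagonist library, with 66206242 and 54328008 UMIs and medians of 4478 and 2732 UMIs per cell. Lgr5 stood at 66.2 CPM (counts scaled to a common library total) in the control and 3.09 CPM in the antagonist library. Both libraries are labelled female, yet Y-linked genes summed to 106 CPM in the control against 5.60 CPM in the antagonist library, and Xist stood at 1.33 against 512 CPM. Cells of 20000 or more UMIs numbered 252 in the control and 365 in the antagonist library, where they held 31.9% of all UMIs against 13.1% in the control. The libraries shared 145 cell barcodes, of which 82 had 20000 or more UMIs in the antagonist library and a median of 647 UMIs in the control. Because deep cells had another mix of ribosomal protein messages, as described further on, values are given over all kept cells and again over cells below 20000 UMIs, a bound chosen after seeing the data.

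Start sites are shown for members at both ends of the comparison and for pairs of related genes, because a TOP tract is the feature that the family is known for. The window runs from 40 bases before to 20 after the start annotated by RefSeq (GRCm38.p6), on the gene's own strand. Where a gene had several annotated starts, the window with the longest run of a C and pyrimidines was printed. Capitals mark the longest run of a C followed by at least 7 pyrimidines, or the first of equally long runs, as in Rps27l. Rps12, Rps27, Rplp0 and Rpl7a were among the members furthest below the control in cells below 20000 UMIs, Rps24 and Rpl22 are abundant or paired members, and Rpl22l1, Rpl27 and Rps27l were at the upper end. Rplp0 has no such run and is in lower case throughout.
Rps12, chr10:23787190-23787249, minus strand: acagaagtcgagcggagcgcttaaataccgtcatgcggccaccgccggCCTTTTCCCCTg
Rps27, chr3:90213629-90213688, minus strand: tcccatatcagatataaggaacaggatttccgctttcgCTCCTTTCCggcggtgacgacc
Rplp0, chr5:115559427-115559486, plus strand: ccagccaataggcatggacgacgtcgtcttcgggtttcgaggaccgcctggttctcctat
Rpl7a, chr2:26910767-26910826, plus strand: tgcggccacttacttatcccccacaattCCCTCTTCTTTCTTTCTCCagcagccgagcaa
Rps24, chr14:24490713-24490772, plus strand: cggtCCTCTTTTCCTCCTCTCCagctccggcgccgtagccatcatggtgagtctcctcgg
Rpl22, chr4:152325686-152325745, plus strand: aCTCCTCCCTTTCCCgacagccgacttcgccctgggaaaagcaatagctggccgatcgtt
Rpl22l1, chr3:28805468-28805527, plus strand: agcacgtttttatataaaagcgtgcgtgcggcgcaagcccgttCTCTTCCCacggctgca
Rpl27, chr11:101442205-101442264, plus strand: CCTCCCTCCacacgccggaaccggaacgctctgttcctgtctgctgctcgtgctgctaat
Rps27l, chr9:66946046-66946105, plus strand: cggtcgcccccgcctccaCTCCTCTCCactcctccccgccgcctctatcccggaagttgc

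Promoter windows of 250 bases before to 50 after the start were matched by symbol for 63 of the 83 members. A gene with several annotated starts counted as holding a match if any of its windows did. A run of C and at least 7 pyrimidines, read on the gene's strand from 40 bases before to 20 after the start, was held by 34 of the 63 (54.0%). It was held by 21.6% of the 27025 genes in the table. The ETS-type motif CCGGAAG, on either strand of the whole window, was held by 25 members (39.7%) against 9.93% of all genes, and TCTCGCGA by 11 members (17.5%) against 1.13%. TATAAA was held by 7 members (11.1%) against 15.7%. Members with and without a match had similar ratios. Over cells below 20000 UMIs the median log2 ratio, antagonist over control, was -0.31 for the 34 members with the pyrimidine run and -0.34 for the 29 without it. For CCGGAAG the medians were -0.30 with and -0.34 without. Rps12 and Rps27l, the members with the lowest and the highest ratio there, both hold a pyrimidine run. A match is a description of these letters and not evidence of a bound factor or of the start that the cells use.

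Ribosomal protein messages took a smaller part of the transcriptome in the antagonist library. They made up 20.6% of all UMIs in the control (13635858 UMIs) and 18.2% in the antagonist library (9883804 UMIs), a ratio of 0.883 (95% interval 0.883 to 0.884), or 1.13-fold lower. The per-cell median was 20.7% in the control (quartiles 15.5% and 24.4%) and 17.4% in the antagonist library (14.6% and 19.7%), so the distributions of cells overlapped broadly. Over cells below 20000 UMIs the shares were 21.6% and 17.3%, a ratio of 0.801. Summed over all deep cells the order was opposite, with shares of 14.1% in the control and 20.1% in the antagonist library. That order came from cells of 40000 or more UMIs, at 4.79% and 20.9%, where 31 of the 46 control cells were Paneth cells. Cells of 20000 to 40000 UMIs kept the order of the whole, at 20.4% and 17.9%.

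The share also followed the depth of the cell, so cells of like depth were set side by side. Between 500 and 1500 UMIs per cell the median share was 13.7% in the control and 15.9% in the antagonist library, the reverse of the overall order. Between 1500 and 3000 UMIs the median was 16.9% in each. The summed share of that group was 17.2% in the control and 16.5% in the antagonist library. These shallower groups held 5983 of the 11019 antagonist cells, of which 2865 lay below 1500 UMIs, where the order was reversed. Between 3000 and 6000 UMIs the median was 22.1% against 18.3%, and between 6000 and 12000 UMIs 23.5% against 18.5%. Deeper cells thus had the higher medians in each library over this range, with a wider span in the control. Mitochondrially encoded UMIs moved with the share too: control cells with 2% to 4% of them had a median share of 23.3% and those with 10% to 20% had 12.9%, against 18.1% and 10.9% in the antagonist library. The part of depth and mitochondrial content in the difference was not tested.

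Cells were then sorted by marker genes into 11 classes that held at least 50 cells in each library. Differentiated and cycling cells were gated by their marker lists. The rest were split into cells with any Lgr5 UMI, cells with high Olfm4 (a crypt base gene), cells with high Dmbt1 (a secreted mucosal defence gene) and other crypt cells. The composition differed: Lgr5 cells were 19.3% of the control and 0.835% of the antagonist cells, Olfm4-high cells 39.8% and 7.11%, and Dmbt1-high cells 4.35% and 46.0%. No doublet caller was run, cells passing the gates of more than 1 differentiated class were left out, and a gate on Lgr5, Olfm4 or Dmbt1 need not take the same kind of cell from each library. A single Lgr5 UMI sufficed, which a deeper cell reaches more easily. Such cells were 28.8% (27.8% to 29.8%) of undifferentiated control cells, against 7.31% (4.46% to 11.2%) of goblet cells, which should lack Lgr5, at median depths of 4107 and 7921 UMIs. Other differentiated control classes ranged widely. Such cells were 5.75% (2.79% to 10.3%) of enterocytes, 21.1% (16.2% to 26.7%) of tuft and 22.2% (15.9% to 29.4%) of Paneth cells, at 7402, 4399 and 1293.5 UMIs. In the antagonist library such cells were 1.49% (1.20% to 1.82%) of undifferentiated and 0.775% (0.160% to 2.25%) of goblet cells, at 2680.5 and 2958 UMIs. Enterocytes there had 0% (0% to 0.987%), Paneth cells 1.83% (0.792% to 3.57%) and tuft cells 3.66% (1.77% to 6.63%). All but the enterocyte interval overlap that of undifferentiated cells, so Lgr5 cells there were not clearly set apart from background. Immune markers summed to 5.11 and 5.43 CPM, and stromal or endothelial markers to 0.710 and 0.258 CPM, with Col1a1, Col3a1 and Cdh5 at 0 in both libraries.

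Among undifferentiated cells the share by summed UMIs was lower in the antagonist library in each class. Lgr5 cells had 24.0% in the control and 21.1% in the antagonist library, and 23.9% against 19.4% below 20000 UMIs. In that class 31 of the 92 antagonist cells were deep and held 86.4% of its UMIs, so 61 cells carry the second value. Olfm4-high cells had 23.3% and 19.7%, and other crypt cells 23.1% and 20.3%. Dmbt1-high cells had 20.6% and 19.8%, and 20.4% against 18.4% without deep cells. At low depth the order turned in Olfm4-high and Dmbt1-high cells. Lgr5 cells and other crypt cells were not split by depth. For all undifferentiated cells together the order turned between 500 and 1500 UMIs only. Between 1500 and 3000 UMIs the medians of all undifferentiated cells were 18.5% in the control and 17.9% in the antagonist library. Between 500 and 1500 UMIs the median was 13.9% in the control and 16.4% in the antagonist library for Olfm4-high cells, and 13.9% and 16.3% for Dmbt1-high cells. Between 1500 and 3000 UMIs the medians were 18.6% and 19.2%, and 15.7% and 17.7%. Between 3000 and 6000 UMIs they were 23.7% and 21.5%, and 21.2% and 18.9%. Cycling cells showed the same order, with 21.6% against 19.1% in S phase and 20.6% against 17.5% in G2 and M phase.

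**Figure D1:**
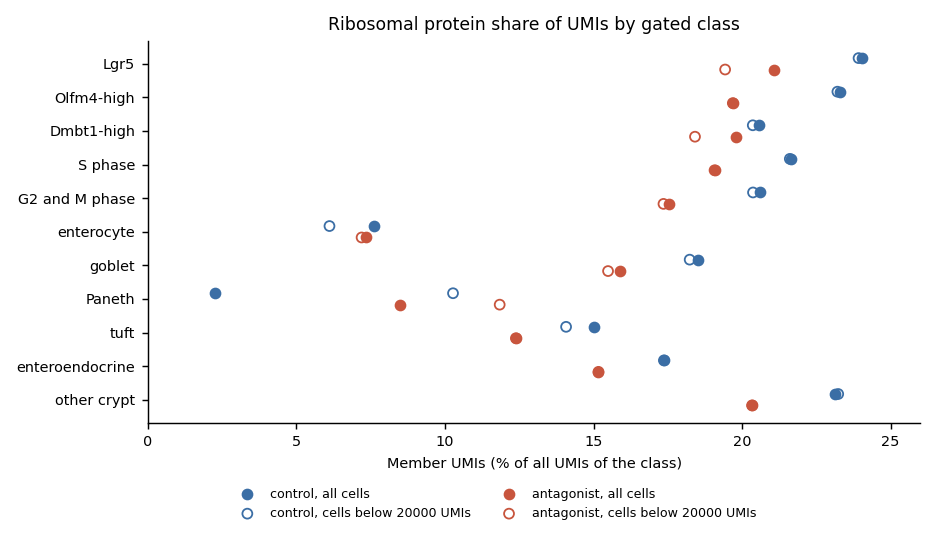
Share of UMIs on the 83 ribosomal protein genes (percent, x axis) in each gated class (y axis) of the control (blue) and antagonist (red) libraries, 1 library each, over all kept cells (filled) and over cells below 20000 UMIs (open). The 5 undifferentiated and cycling classes at the top and the other crypt cells lie to the left in the antagonist library, enterocytes and Paneth cells have the lowest shares, and the control Paneth point moves from 2.25% to 10.3% once deep cells are left out.

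Differentiated classes had lower shares than crypt cells in each library and no common order between libraries. Goblet cells, which make mucus, had 18.5% in the control and 15.9% in the antagonist library. Enterocytes, the absorptive cells, had 7.60% and 7.34%, but 6.11% and 7.19% without deep cells, and their per-cell medians were 4.51% and 6.57%. Tuft cells, chemosensory cells, had 15.0% and 12.4%, yet among cells of 3000 to 12000 UMIs the order turned to 12.7% and 14.7%. Enteroendocrine cells, the hormone producers, had 17.4% and 15.2% over only 67 and 66 cells, and medians of 14.1% and 14.6%. Paneth cells, which secrete antimicrobial peptides, had the opposite order over all cells, at 2.25% and 8.50%. Most genes tested in Paneth cells had this order too, 2521 of 2607. In the control 34 deep cells of 158 held 90.7% of that class's UMIs, and in the antagonist library 28 of 438 held 46.7%. Below 20000 UMIs the Paneth shares were 10.3% and 11.8%. The share was lower in the antagonist library in 10 of 11 classes by summed UMIs, in 9 of 11 without deep cells and in 8 of 11 by per-cell median.

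Counted by member within each class below 20000 UMIs, most of the 83 were lower in the antagonist library in 9 of the 11 classes. In Lgr5 cells 76 were lower, against 54% of all genes tested in that class. In Olfm4-high cells 71 were lower (52.9% of genes), in Dmbt1-high cells 70 (61.6%) and in other crypt cells 75 (50.1%). Cycling cells had 71 lower in S phase and 73 in G2 and M phase (62.4% of genes in each). Goblet cells had 77 lower (55.6%), tuft cells 73 (52.7%) and enteroendocrine cells 70 (49%). In enterocytes only 8 were lower (48.7%), and the median log2 ratio of the members was 0.23. In Paneth cells 14 were lower (38.6%), with a median of 0.18 for the members and 0.19 for all genes of that class.

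Member by member, 71 of the 83 genes had a lower CPM in the antagonist library and 12 a higher one, where 64.5% of all 11772 genes with 100 or more UMIs were lower. The median log2 ratio was -0.15 for the members and -0.13 for all genes. Genes of like abundance differed from both: of the 176 other genes at 500 CPM or more in each library, 125 were higher and 51 lower, with a median of 0.25. Scaled to the median gene, 49 members were lower and 34 higher. None of the members reached a 1.5-fold difference, against 15.2% of all genes lower and 5.6% higher by that much. Below 20000 UMIs, 79 members were lower and 4 higher (67.6% of 11579 genes lower), with medians of -0.33 for the members and -0.18 for all genes. There 8 members were at least 1.5-fold lower and none as much higher, against 18% and 5.98% of all genes, and scaling to the median gene left 65 lower. The share of members past 1.5-fold lies below that background, most of which is made of fainter genes. Over all cells the standard deviation of log2 ratios was 0.15 for the members, 0.40 for the 176 abundant genes, of which 6 were 1.5-fold lower and 27 higher, and 0.60 for all genes.

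**Figure D2:**
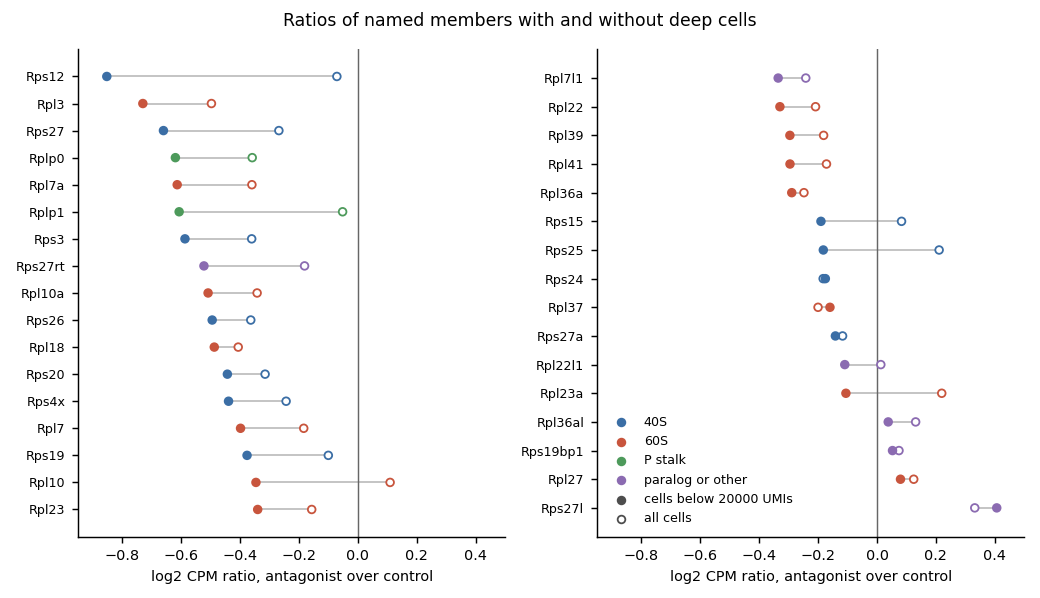
Log2 CPM ratio, antagonist over control (x axis), of 33 members chosen by the naming rule (y axis, ordered by the ratio below 20000 UMIs), over all kept cells (open) and over cells below 20000 UMIs (filled), coloured by subunit. Most filled points lie left of 0 and left of their open points, Rps12 shifts the furthest from -0.07 to -0.85, and Rps27l stands alone at the upper end at 0.41.

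The small subunit had 26 of 31 members lower over all cells, with a median log2 ratio of -0.13, and 31 of 31 without deep cells, with a median of -0.31. Of all genes 64.5% and 67.6% were lower, with medians of -0.13 and -0.18. Over all cells the median of the subunit was thus that of all genes. Rps24, among the most abundant members, had 7578 CPM in the control and 6676 CPM in the antagonist library, Rps20 had 6657 and 5351 CPM, and Rps27a, made as a fusion with ubiquitin, had 6083 and 5610 CPM. Rps26, which sits at the messenger RNA exit channel, stood at 4916 and 3821 CPM, and Rps3, at the entry channel, at 2324 and 1810 CPM. These 2 were the lowest small-subunit members over all cells, at log2 ratios of -0.36 each.

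Rps12 was the member most altered by deep cells. Over all kept cells it had 2193 CPM in the control and 2087 CPM in the antagonist library. That ratio of 0.952 is in the upper part of the family. Below 20000 UMIs it had 2195 and 1216 CPM, a ratio of 0.554 and the lowest of all members. Rps25, a protein of the subunit head, went from higher to lower, with 905 and 1048 CPM over all cells and 928 and 818 CPM below 20000 UMIs. Rps15 had 1133 and 1201 CPM, and 1171 and 1026 CPM without deep cells.

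The large subunit had 40 of 43 members lower over all cells and 42 of 43 without deep cells, with median log2 ratios of -0.17 and -0.34. Among all genes 64.5% and 67.6% were lower, with medians of -0.13 and -0.18. Rpl3, a protein close to the peptidyl transferase centre, was among the lowest of the whole family over all cells and, after Rps12, the lowest below 20000 UMIs. It had 1268 and 898 CPM, a ratio of 0.708 (0.701 to 0.716), and 0.603 without deep cells. Rpl18 followed with 4678 and 3530 CPM, Rpl7a with 1661 and 1294 CPM and Rpl10a with 2576 and 2032 CPM. The abundant Rpl37, at 6244 and 5436 CPM, Rpl41, at 4843 and 4300 CPM, and Rpl23, at 4735 and 4247 CPM, had log2 ratios of -0.20, -0.17 and -0.16. At the upper end Rpl27 had 636 and 694 CPM and was the sole large-subunit member still higher below 20000 UMIs, at 668 and 706 CPM. Rpl23a had 753 and 877 CPM over all cells, and 776 and 721 CPM without deep cells.

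The P stalk, which recruits the elongation factors, did not move as a unit. Rplp0, its base, had 2127 CPM in the control and 1658 CPM in the antagonist library, and log2 ratios of -0.36 over all cells and -0.62 below 20000 UMIs. Rplp1 had 1920 and 1852 CPM, with log2 ratios of -0.05 and -0.61. Rplp2, the partner of Rplp1, had 2601 and 2574 CPM, with log2 ratios of -0.02 and -0.06. Processed pseudogenes exist for most members, and how reads shared with them were counted was not stated. Whether such copies alter any of these levels was not tested. Rpl13a stood at 142 and 128 CPM.

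Members on the X chromosome were looked at apart, given the Xist and Y-linked values above. Rps4x, of the small subunit, had log2 ratios of -0.24 over all cells and -0.44 below 20000 UMIs. Rpl36a had -0.25 and -0.29, Rpl39, which lines the exit tunnel, had -0.18 and -0.30, and Rpl10, which joins the large subunit late in assembly, had 0.11 and -0.35. All 4 lie among the other members below 20000 UMIs, where the median was -0.33. The sex-linked difference lies between the same libraries as the treatment, so the parts of the 2 cannot be told apart. This holds for members on other chromosomes too, and it was not tested.

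Paralogs were compared as UMIs of the less usual form per UMI of its partner. Rps27l, a paralog of Rps27 known as a target of p53, had 796 CPM in the control and 1002 CPM in the antagonist library, the highest ratio of the family at 1.26 (1.24 to 1.27), while Rps27 had 667 and 553 CPM. There were 1.19 Rps27l UMIs per Rps27 UMI in the control and 1.81 in the antagonist library, and 1.21 and 2.53 below 20000 UMIs. Below 20000 UMIs that quotient was higher in the antagonist library in 11 of 11 classes, going from 1.06 to 2.66 in Lgr5 cells and from 2.45 to 3.17 in enterocytes. Over all kept cells it was higher in 10 of 11, with 1.04 and 1.07 in Lgr5 cells and the opposite order in Paneth cells, 2.50 and 2.15. Rpl22l1 per Rpl22, whose protein is known to repress the Rpl22l1 message, went from 0.428 to 0.499 over all cells. Below 20000 UMIs that quotient was higher in 11 of 11 classes. Paneth cells were nearly level there, at 0.4342 and 0.4345, and enteroendocrine cells had 0.375 and 0.385. Rpl36al per Rpl36a went from 0.239 to 0.311 and was higher in 10 of 11 below 20000 UMIs. Rpl7l1, a factor of large-subunit assembly, per Rpl7 was 0.0775 and 0.0745 over all cells. Below 20000 UMIs it was 0.0774 and 0.0809, yet higher in only 4 of 11 classes. Rps27rt, a retrocopy nearly identical to Rps27, had 41.3 and 36.4 CPM. Rps19bp1 had 56.7 and 59.7 CPM, beside 1215 and 1133 CPM for its partner Rps19.

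To ask whether members kept their proportions, each was taken as its share of all member UMIs. Over all kept cells 4 members differed from the sum by 0.32 or more on the log2 scale, among them Rps27l, Rps25 and Rpl23a upwards. Below 20000 UMIs 8 did so, among them Rps12, Rpl3 and Rps27 downwards, with relative log2 ratios of -0.53, -0.41 and -0.34, and Rps27l, Rpl27, Rps19bp1 and Rpl36al upwards, with 0.73, 0.40, 0.37 and 0.36. Below 20000 UMIs, 20 members were relatively lower in 11 of 11 classes and 20 relatively higher in 11 of 11, against 8 and 7 when deep cells were kept. The other members differed in direction between classes. Rps12 ranged from -0.63 in tuft cells to -0.36 in other crypt cells, and Rplp0 from -0.32 to -0.23. Rps27l ranged from 0.26 in enterocytes to 0.82 in Lgr5 cells. All classes come from the same pair of libraries, so a difference between libraries that touches every cell and a difference between treatments cannot be told apart.

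**Figure D3:**
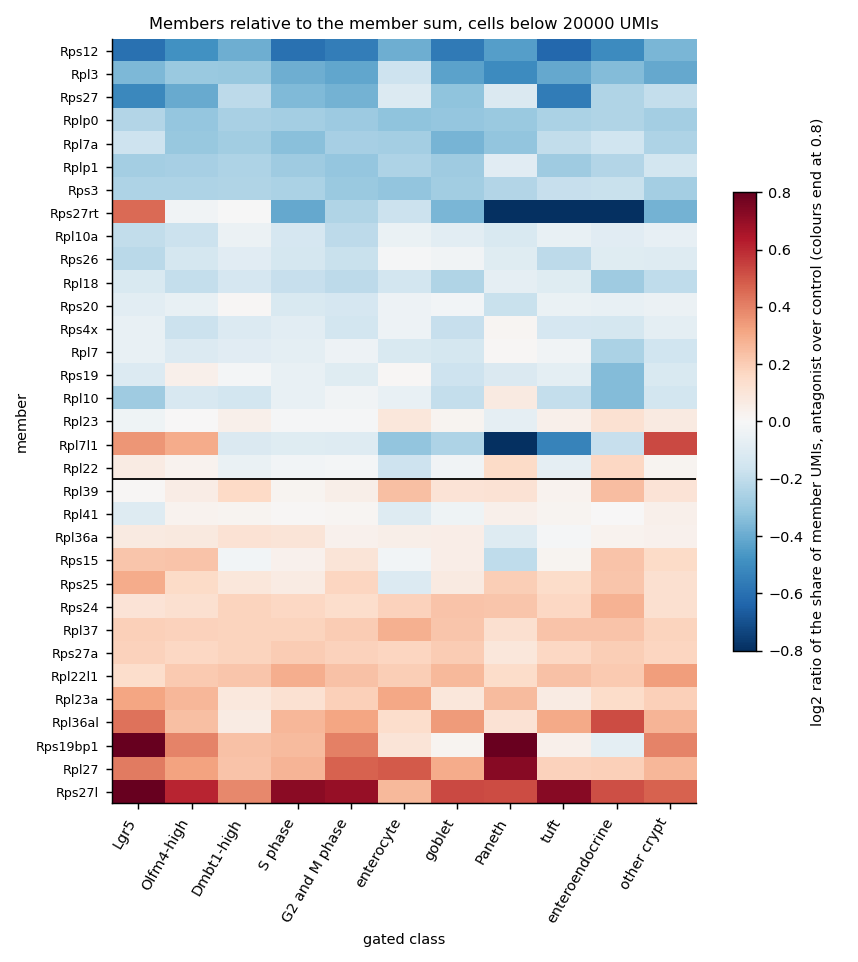
Log2 ratio, antagonist over control, of each member's share of member UMIs (colour, ending at 0.8 either way) in the 11 gated classes (x axis), over cells below 20000 UMIs, for 33 members chosen by the naming rule (y axis, ordered by the value over all classes together, with a line between those below and above 0). Rps12 is below 0 and Rps27l above 0 in each of the 11 classes, and Rps27rt, with few UMIs, varies between classes.

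The mix of members shifted with the depth of the cell in each library, most of all above 20000 UMIs. Rps12 made up 0.897% of member UMIs in control cells of 3000 to 6000 UMIs, 1.48% at 20000 to 40000 and 1.96% at 40000 or more. In the antagonist library it went from 0.658% to 1.31% and 2.15%. Rplp1 was also higher in deep cells, by 0.87 in the control and 1.22 in the antagonist library on the log2 scale between 3000 to 6000 and 40000 or more UMIs. Rps27l did not share a direction, higher by 0.63 in deep control cells and lower by 0.79 (a log2 difference of -0.79) in deep antagonist cells. The cells of 40000 or more UMIs were 46 in the control, 31 of them Paneth, and 209 in the antagonist library, 164 of them Dmbt1-high, with medians of 2669 and 6762 genes. Over the 83 members the log2 shift between those depths had a Pearson correlation of 0.58 between libraries (Spearman 0.45), a description over genes of the same cells.

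**Figure D4:**
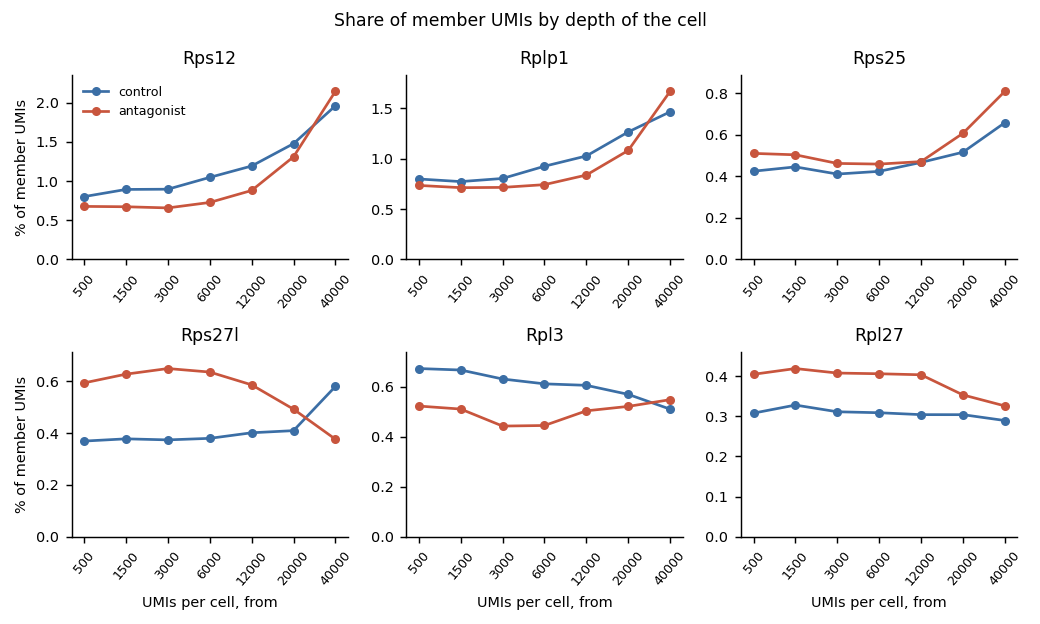
Share of member UMIs (percent, y axes starting at 0) taken by 6 members in cells grouped by UMIs per cell (x axis, lower bound of each group) in the control (blue) and antagonist (red) libraries. Rps12, Rplp1 and Rps25 take more in deep cells of each library, Rps12 lies lower in the antagonist library at every depth under 40000, and the Rps27l and Rpl27 lines lie higher in the antagonist library at every depth under 40000.

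The mix also differed between classes, and enterocytes differed from Olfm4-high cells in a similar way in each library. Relative to Olfm4-high cells below 20000 UMIs, enterocytes had more of their member UMIs on Rps27l, by 1.16 in the control and 0.81 in the antagonist library on the log2 scale, and on Rpl36al, by 0.77 and 0.66. Rpl10 was higher by 0.48 and 0.55, and Rps29, a zinc-binding protein of the small subunit, by 0.53 and 0.42. Rpl12, of the stalk base, had log2 differences of -0.48 in each, Rpl36a -0.33 and -0.36, and Rpl14 -0.31 in each. Over the 83 members the enterocyte differences had a Pearson correlation of 0.87 between libraries (Spearman 0.85), goblet differences 0.70 (0.59) and tuft differences 0.61 (0.62). Enteroendocrine differences had 0.41 (0.69) and Paneth differences -0.06 (0.18). Among undifferentiated cells, other crypt cells had 0.72 (0.72) and Dmbt1-high cells 0.43 (0.46), while Lgr5 cells had only 0.09 (0.15). Such likeness was thus neither limited to differentiated cells nor shared by every class. These are correlations across genes, which are not independent, and the Olfm4-high cells of each library enter all of them.

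**Figure D5:**
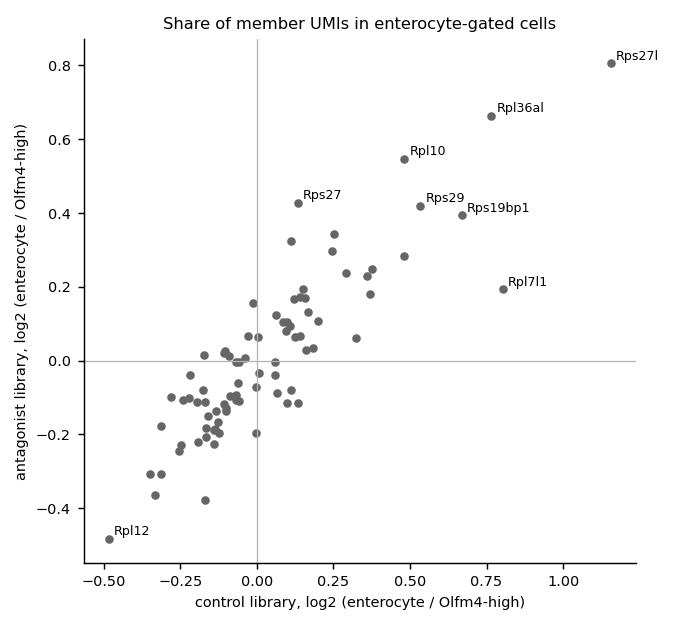
Log2 difference between enterocytes and Olfm4-high cells in each member's share of member UMIs, over cells below 20000 UMIs, in the control (x axis) and antagonist (y axis) libraries, with 1 point per member. Rps27l and Rpl36al lie at the upper right and Rpl12 at the lower left.

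Other genes of the same machinery were read against the members. Of ribosomal proteins whose symbols fall outside the rule, Fau had 5127 and 4551 CPM and Rack1 818 and 738 CPM, with log2 ratios of -0.17 and -0.15. Below 20000 UMIs the median of that short list was -0.20, nearer to the -0.18 of all genes than to the -0.33 of the members. Of 27 TOP messages listed, 24 were measured, Fau and Rack1 included. Of these 22 were lower, where 64.5% of all genes were, with a median of -0.18 against -0.13 for all genes. Pabpc1, the poly(A)-binding protein, was lowest at 1009 and 624 CPM, and Npm1, a nucleolar chaperone, followed at 1351 and 926 CPM. Tpt1 had 1684 and 1940 CPM, and Eif2s3x, an X-linked gene known to escape X inactivation, had 58.1 and 84.4 CPM. Below 20000 UMIs the list's median was -0.29 against -0.18 for all genes.

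Ribosome biogenesis genes, which make and assemble ribosomal RNA, were lower for 33 of 46 over all cells and 39 of 46 below 20000 UMIs, with medians of -0.18 and -0.32. Of all genes 64.5% and 67.6% were lower, with medians of -0.13 and -0.18, so the first count is near the background. The lowest were Npm1 and Taf1d, a transcription factor of RNA polymerase I, at 249 and 182 CPM. The highest were Bysl, at 7.55 and 10.0 CPM, and Bop1, at 14.5 and 18.6 CPM. Among 26 regulators, 16 were lower, with a median of -0.15, close to the background of 64.5% lower and a median of -0.13 for all genes. Myc, which drives ribosome production, had 54.0 CPM in the control and 34.7 CPM in the antagonist library, and Mycl 17.4 and 10.0 CPM, while Mycn had 2.28 and 6.96 CPM. Larp1 had 153 and 134 CPM, and the kinase gene Rps6ka1 73.1 and 88.2 CPM. Mitochondrial ribosomal proteins serve a separate ribosome and were listed by symbol (Mrpl or Mrps and a digit). Not every gene so listed need encode a part of that ribosome. The listed genes had the opposite order: 62 of 78 were higher in the antagonist library over all cells and 52 of 78 below 20000 UMIs. Their median was 0.12 in each case, where most genes were lower. Their summed level was not higher in every class, with 13635 and 13109 CPM in Dmbt1-high cells. Mrpl51 had 122 and 183 CPM and Mrps36 215 and 316 CPM at the upper end, and Mrpl2 169 and 141 CPM and Mrpl24 167 and 143 CPM at the lower.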

How the data were processed

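The deposited files hold raw UMI counts for each gene in each barcode. The authors counted with Cell Ranger against mm10 (GRCm38), as the submitters' processing notes state. Version 3.1.0 is recorded per the file headers. The sources used here do not say which annotation release was used, how barcodes were chosen or how reads shared between genes were treated. From these counts, cells were kept from 500 genes upwards and up to 20% mitochondrially encoded UMIs. UMIs were summed per library or gated class and divided by the total to give CPM, and log2 ratios had 0.5 added to each sum. Shares and ratios have exact binomial intervals. No test was made. A gate needed at least 3 distinct markers at 5 times the mean marker share (2 times for cell cycle lists), and a high Olfm4 or Dmbt1 level meant 1000 CPM. Named genes were the 8 most abundant, 8 lowest and 8 highest members, the 6 that varied most over classes, X-linked members, paralogs, and the 2 highest and 2 lowest of each other list, with Fau, Rack1, Myc and Larp1. Some genes this rule selects are not reported here. Rplp2, Rpl13a, Rps29, Rpl12 and Rpl14 were named after their values were seen. The members and lists were chosen with earlier results of these data known. Scripts were tested on simulated data and used numpy 2.4.6, scipy 1.17.1 and pandas 2.3.3 under python 3.11.15, with figures by matplotlib 3.10.9.
Alternatives to the cell filter, denominator, weighting of cells and classes, scaling, fold, gates and depth were tried.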

Additional observations from a re-analysis of the deposited data

Results flagged for a closer look

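The ribosomal protein share of Paneth cells went against all kept cells, with a log2 ratio, antagonist over control, of 1.92 against -0.18. Most genes of the class had this order: 2521 of 2607 tested were higher. The median log2 ratio was 1.79 for all genes of the class and 1.93 for the members. Below 20000 UMIs the log2 ratio of the Paneth share was 0.21, since 34 deep control cells held 90.7% of that class's UMIs. The difference between Paneth cells and other classes was not tested.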

How the results depend on the processing

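The log2 ratio of the ribosomal protein share, -0.18 over all kept cells, was -0.18 with at least 1000 genes and at most 10% mitochondrially encoded UMIs, -0.18 over every deposited barcode, -0.18 without mitochondrially encoded UMIs, -0.24 with equal weight for each cell, -0.29 with cells thinned to 3000 UMIs and -0.16 with classes weighted alike. Alternatives chosen after seeing the data gave -0.32 without cells of 20000 or more UMIs, -0.24 without shared barcodes, -0.33 over cells of 3000 to 12000 UMIs and -0.21 without Paneth and ambiguous cells. The median log2 ratio over members, -0.15, was -0.24 with equal weight, -0.28 thinned, -0.017 scaled by the median ratio, -0.33 without deep cells, -0.23 without shared barcodes, -0.34 at 3000 to 12000 UMIs and -0.19 without Paneth and ambiguous cells. Members past 1.5-fold, 0 over all kept cells, were 3 with equal weight, 4 thinned and 8 without deep cells. They were 1 without shared barcodes and 9 at 3000 to 12000 UMIs. Past the smaller bound of 0.32 on the log2 scale, 9 members were lower and 1 higher over all kept cells. Of all 11772 genes, 3654 were lower and 1495 higher by that much. Below 20000 UMIs 43 members were lower and 1 higher, against 4220 and 1461 of 11579 genes. Members 0.32 or more from the sum, 4 over all kept cells, were 7 thinned, 8 without deep cells and 8 at 3000 to 12000 UMIs. At 3000 to 12000 UMIs 6 of 8 classes had the lower share.

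Of 33 named members, 24 kept their sign under each alternative run. With equal weight Rpl10 was at -0.24, Rpl22l1 at -0.053, Rps15 at -0.083 and Rps25 at -0.035. Thinned, they were at -0.28, -0.044, -0.17 and -0.11, and Rpl23a at -0.038. With classes weighted alike Rpl10 was at -0.016. Scaled by the median ratio, Rps19 was at 0.033, Rps12 at 0.062, Rplp1 at 0.081 and Rps27a at 0.016. Without deep cells Rpl10 was at -0.35, Rpl22l1 at -0.11, Rps15 at -0.19, Rps25 at -0.18 and Rpl23a at -0.11, and at 3000 to 12000 UMIs at -0.38, -0.058, -0.22, -0.19 and -0.11. Without shared barcodes Rpl10 was at -0.063, Rpl22l1 at -0.042 and Rps15 at -0.032, and without Paneth and ambiguous cells Rpl22l1 at -0.019. The enterocyte share had log2 ratios of 0.14 thinned, 0.11 with gates at 3 and 1.5 times the mean, 0.23 without deep cells and 0.25 at 3000 to 12000 UMIs, and the tuft share 0.16 thinned and 0.21 at 3000 to 12000 UMIs. The cause of these turns was not tested.

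No paired analysis was possible because each group has 1 library. Thinning left out 3727 control and 5983 antagonist cells. Every deposited barcode was not run for gated classes.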
